A study of Mus with 4 samples.

Results

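The 6 genes of the type IV collagen chains, Col4a1 to Col4a6, were examined in a murine podocyte cell line that overexpressed the transcription factor OASIS. They were taken by gene symbol from the annotation of a 1-colour Agilent mouse array, on which they have 9 probes, out of 26893 named genes and 56605 probes. Col4a1, Col4a2 and Col4a6 each have 1 probe, and Col4a3, Col4a4 and Col4a5 each have 2. Of the 9 probes, 8 were tested, and each of these was well above background on all 4 arrays. At least 1 probe was tested for each of the 6 genes.

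Both groups came from the same immortalized line, differentiated at the nonpermissive temperature in medium without interferon-γ. The control group of 2 samples, Venus1 and Venus2, was infected for 24 h with a lentivirus for Venus, a fluorescent protein. The OASIS group of 2 samples, OASIS1 and OASIS2, was infected in the same way with a vector that encodes OASIS in its active form, the product of Creb3l1, which acts in the nucleus once it is cut free from the membrane of the endoplasmic reticulum. Polybrene was present during infection in both groups, and total RNA was collected 48 h after the vectors were added. Nothing states that samples of a group came from separate cultures, so that the p-values below measure the spread between these samples, which may be technical. The comparison asks which of these genes change when OASIS is raised in a podocyte line, and 1 line cannot speak for podocytes in a kidney.

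Type IV collagen is the network-forming collagen of basement membranes. Each molecule is a triple helix of chains that choose their partners through a noncollagenous domain at the C-terminus, and it is secreted and joined end to end into a sheet. The chains encoded by Col4a1 and Col4a2 form the network found in nearly every basement membrane. Those of Col4a3, Col4a4 and Col4a5 form the network of the mature glomerular basement membrane, which podocytes produce and whose loss causes Alport syndrome. Those of Col4a5 and Col4a6 combine in other sites, among them Bowman's capsule. The genes lie in neighbouring pairs read in opposite directions, and in the RefSeq gene order 0 protein-coding genes lie between the members of each pair, on chromosomes 8, 1 and X.

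All values below are log2 intensities relative to the 75th percentile of the same array, unless another quantity is named. Since every probe has its own response, levels are compared between arrays for 1 probe and not between probes. In RNA from a culture, fewer cells with a transcript and less of it per cell cannot be told apart. The 4 arrays had between 33938 and 34418 of 59305 spots well above background and 0 saturated spots, and they lay on 1 slide. Pearson's r across probes, which are not independent replicates, was 0.997 for the 2 arrays of Venus samples, 0.995 for those of OASIS samples, and 0.973 to 0.978 across the groups. The Creb3l1 probe read -0.17 (SE 0.10) for OASIS against Venus, with an adjusted p of 0.298 in limma. Where this probe lies relative to the delivered sequence is not known, so it does not check the labels. Of 16 podocyte markers, 12 were well above background on all 4 arrays, whereas Tcf21 and Ptpro were so on none and Nphs1 on at most 1. Synpo, Actn4 and Nes were among those detected. By the same rule 4 of 5 macrophage markers, 3 of 5 mesangial and 3 of 5 tubular markers were detected on all 4 arrays. Detection here thus does not by itself show a podocyte programme, and the line lacked a signal for several defining podocyte genes.

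None of the 8 tested collagen probes passed the threshold of the study, which was a fold above 2.0 or below 0.5 together with an adjusted p under 0.1. In limma, 0 rose and 0 fell, beside 8.36% of all 31590 probes tested that passed it, 5.89% upward and 2.47% downward. The fitted log2 fold changes of the 8 probes ran from -0.82 to 0.61, with 4 above and 4 below 0. Their median was -0.06, and that of all probes tested was -0.07. By an adjusted p under 0.1 without the fold, 2 of the 8 were lower with OASIS and none was higher, beside 36.7% of all probes in either direction, 19.7% lower and 17.0% higher. These 2 were the tested probe for Col4a3 and one of the pair for Col4a5, and they were also the 2 with an unadjusted p under 0.05, beside 40.7% of all probes. The OASIS and Venus arrays did not overlap for 4 of the 8 probes, beside 68.0% of all probes tested. The collagen probes were thus not called more often than probes of the array at large, on any of these counts taken in both directions.

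**Figure D1:**
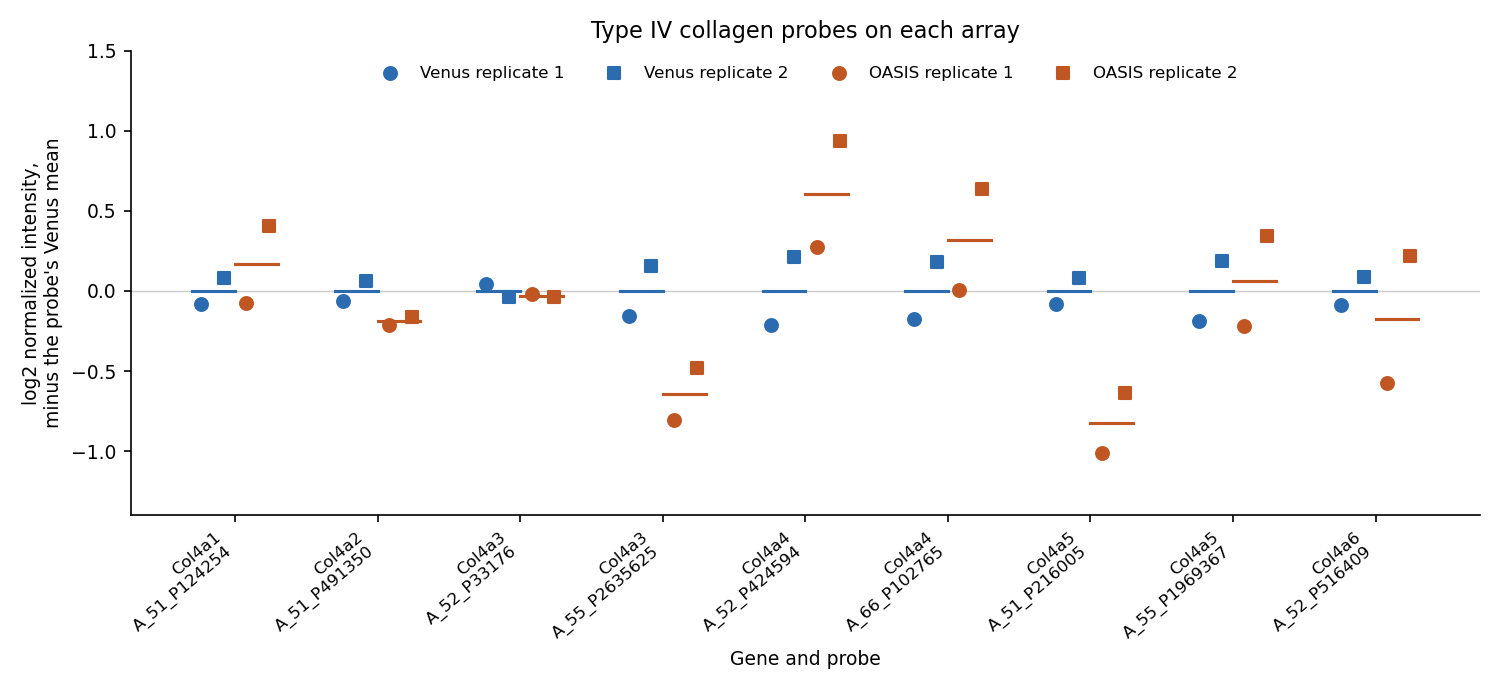
Each point is 1 array, and the y axis gives its log2 normalized intensity less the Venus mean of that probe, for the 9 probes along the x axis. Short lines mark group means. The OASIS points lie below both Venus points for Col4a2, for Col4a3 probe A_55_P2635625 and for Col4a5 probe A_51_P216005, and above both for Col4a4 probe A_52_P424594.

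Col4a1 and Col4a2, the chains of the widespread network, gave strong signals, and neither passed the threshold. The Col4a1 probe (A_51_P124254, chromosome 8, band qA1.1) read 3.80 and 3.97 with Venus (Venus1, then Venus2) and 3.81 and 4.29 with OASIS (OASIS1, then OASIS2), the order kept below. OASIS1 lay within the Venus range and OASIS2 above it. The group means were 3.89 ± 0.12 for Venus and 4.05 ± 0.34 for OASIS (SD, n = 2 each), and the difference of 0.17 (SE 0.19, 95% confidence interval -0.34 to 0.67) had an adjusted p of 0.567 in limma. On the linear scale this is 1.12-fold, with an interval from 0.790 to 1.59. A 2-fold change of this probe in either direction lies outside that interval.

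The Col4a2 probe (A_51_P491350, same band) read 4.42 and 4.54 with Venus and 4.26 and 4.31 with OASIS. Both OASIS arrays lay below both Venus arrays, by 0.10 at the closest. The difference was -0.19 (SE 0.11, interval -0.47 to 0.09) with an adjusted p of 0.253. The background-corrected intensity of Col4a2 lay between 18338 and 22916 on the 4 arrays, and that of Col4a1 between 12936 and 18919, so that dim signal was not a limit for this pair.

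Col4a3 and Col4a4 encode chains of the glomerular network, and Col4a3 also carries the epitope that antibodies bind in Goodpasture disease. All 4 of their probes were dim. One Col4a3 probe (A_52_P33176, chromosome 1, band qC5) was not well above background on any of the 4 arrays, with corrected intensities of 2.90 to 2.95, and no fold is given for it. The other (A_55_P2635625, same band) read -3.34 and -3.03 with Venus and -3.99 and -3.67 with OASIS. Both OASIS arrays were lower, by 0.33 at the closest. The difference was -0.64 (SE 0.18, interval -1.11 to -0.18), which is 0.641 of the Venus level, with an adjusted p of 0.0617. Its spots were only 2.25 to 3.55 times as bright as their local background, that background carried an outlier mark on all 4 arrays, and the deposited detection score was at its top value on 1 of 4. After normexp background correction the difference was -0.33 with an adjusted p of 0.0644. With no filter on dim probes the adjusted p was 0.172, and in the methods' t-test it was 0.241. It was 0.0482 with a filter on all 4 arrays and 0.0437 with an intensity trend in limma. Without Venus replicate 1, Venus replicate 2, OASIS replicate 1 or OASIS replicate 2 the difference was -0.80, -0.49, -0.48 and -0.80. Each of these fits leaves 1 array in a group, so only the size of the difference is given.

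For Col4a4, the brighter probe (A_52_P424594, chromosome 1, band qC5) read -3.35 and -2.93 with Venus and -2.87 and -2.20 with OASIS. The OASIS arrays were higher, but OASIS1 exceeded Venus2 by only 0.06, less than the spread within either group. The difference was 0.61 (SE 0.28, interval -0.13 to 1.34), with an adjusted p of 0.177. The dimmer probe (A_66_P102765) read -4.34 and -3.98 with Venus and -4.15 and -3.52 with OASIS. Here OASIS1 fell between the Venus arrays, and the difference was 0.32 (SE 0.26, interval -0.36 to 0.999) with an adjusted p of 0.408. The annotation gives both probes the same Ensembl transcript. An increase of 2-fold lies inside the interval of the brighter probe and at the edge of that of the dimmer, so that these arrays leave such an increase undecided.

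For Col4a5, the 2 tested probes differed, with a fitted fall for the first and no clear change for the second. The gene encodes the X-linked chain of the glomerular network, the one most often mutated in Alport syndrome. The probe annotated to transcript variant 2 (A_51_P216005, chromosome X, band qF2) read 1.35 and 1.51 with Venus and 0.42 and 0.79 with OASIS. Both OASIS arrays were below both Venus arrays, by 0.55 at the closest. The corrected intensities behind these values were 2354 and 2814 with Venus and 1276 and 1675 with OASIS, and the spots were 49.4 to 97.0 times as bright as their background. The difference was -0.82 (SE 0.17, interval -1.26 to -0.39), or 0.565 of the Venus level with an interval from 0.417 to 0.765, and its adjusted p was 0.0317. It thus met the adjusted p and missed the fold. The local background of this probe carried an outlier mark on 2 arrays.

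The difference stayed below 0 without any 1 array, but its side of the threshold did not hold. Without OASIS replicate 2 it was -1.01 with an adjusted p of 0.0349, which is past the threshold, and without OASIS replicate 1 it was -0.64 with an adjusted p of 0.0659. Without Venus replicate 1 it was -0.91 with an adjusted p of 0.109, and without Venus replicate 2 it was -0.74 with an adjusted p of 0.149. With no filter on dim probes it was 0.107, and in the methods' t-test it was 0.179.

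The second Col4a5 probe (A_55_P1969367, same band, annotated to transcript variant 1) read 2.23 and 2.61 with Venus and 2.20 and 2.77 with OASIS. The groups overlapped fully, the OASIS arrays lying on either side of the Venus pair. The difference was 0.06 (SE 0.24, interval -0.58 to 0.70) with an adjusted p of 0.875. The annotation again gives both probes 1 Ensembl transcript, and the place of each probe on it is not known here, so the labels do not settle whether the probes read different transcripts.

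Col4a6, the partner of Col4a5 outside the glomerulus, was close to background. Its probe (A_52_P516409, chromosome X, band qF1) read -5.35 and -5.18 with Venus and -5.84 and -5.04 with OASIS, and the OASIS arrays lay on either side of the Venus arrays. The difference was -0.18 (SE 0.28, interval -0.93 to 0.57) with an adjusted p of 0.684. Its spots were 1.65 to 2.19 times as bright as their background, and after normexp correction the difference was 0.00047, of the opposite sign.

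**Figure D2:**
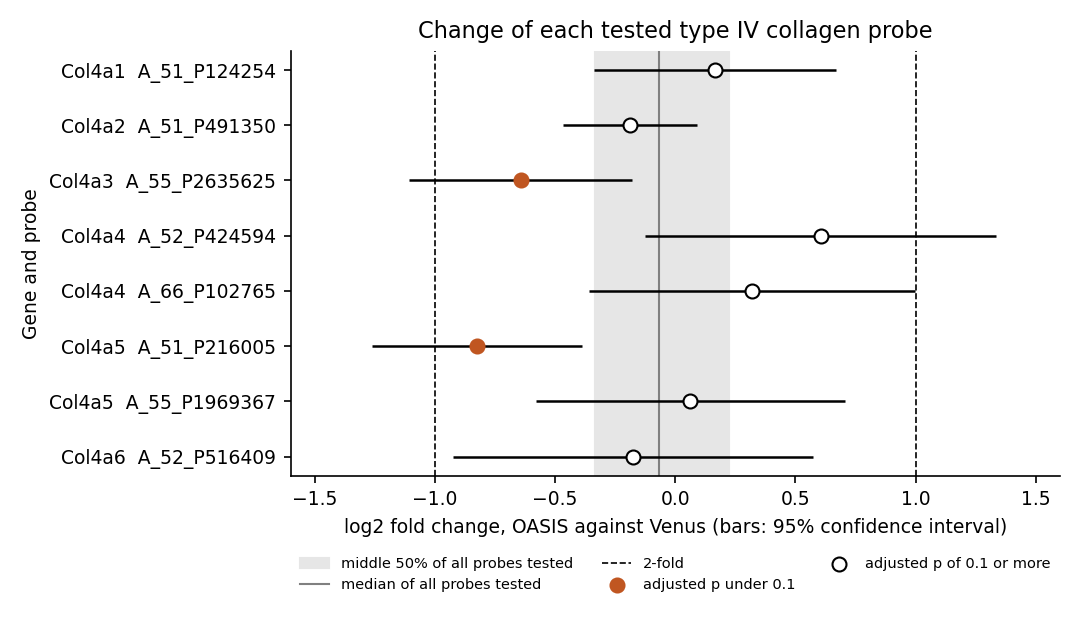
Points give the log2 fold change of each of the 8 tested probes, OASIS against Venus, and bars give its 95% confidence interval. The grey band holds the middle 50% of all probes tested, and dashed lines mark 2-fold. Every point lies between the dashed lines, and the filled points, for Col4a3 and for Col4a5 probe A_51_P216005, have an adjusted p under 0.1.

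In each group the second array read higher than the first for 8 of 8 tested collagen probes, whereas it did so for 42.4% of all probes tested with Venus and 43.0% with OASIS. A difference between 2 probes of the same array cancels what raises both, and such differences were computed for the chains of each pair and for the 2 probes of a gene. With 2 arrays a group, an exact two-sided permutation test has 6 splits and cannot go below p = 0.33, and each of the 3 chain pairs gave this value, also after adjustment over the 3. The differences were therefore also fitted with limma over all neighbouring protein-coding genes, a test chosen after the values had been seen.

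By their brightest tested probes, Col4a3 and Col4a4 differed in their fitted response. Less its Venus mean, the difference Col4a3 minus Col4a4 was 0.06 and -0.06 with Venus and -1.08 and -1.42 with OASIS. The OASIS arrays were thus far outside the Venus range on the same side, the change being -1.25 (SE 0.17, interval -1.69 to -0.80) with an adjusted p of 0.00861. It passed the fold and the adjusted p, as did 17.7% of the 10545 neighbouring pairs. After normexp correction it was -0.72 with an adjusted p of 0.00864, short of the fold, which matters here since both probes were dim. The Col4a3 probe also carried the background outlier marks given above. With the mean of both Col4a4 probes the change was -1.11. Leaving out any 1 array gave -1.42 to -1.08, past the threshold each time.

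The difference Col4a1 minus Col4a2, less its Venus mean, was -0.02 and 0.02 with Venus and 0.14 and 0.57 with OASIS. Both OASIS arrays lay above, but not evenly, and the change of 0.35 (SE 0.18, interval -0.13 to 0.84) had an adjusted p of 0.202. For Col4a5 minus Col4a6, with the brighter Col4a5 probe, the values were -0.10 and 0.10 against 0.35 and 0.12. OASIS2 was barely above Venus2, and the change was 0.24 (SE 0.16, interval -0.18 to 0.65) with an adjusted p of 0.298. With the mean of both Col4a5 probes this change turned to -0.21.

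The 2 Col4a5 probes parted by more than the arrays of a group did. The brighter less the dimmer read 0.89 and 1.10 with Venus and 1.78 and 1.97 with OASIS. The gap between the groups was larger than the gap within either, and the change was 0.89 (SE 0.13, interval 0.53 to 1.24) with an adjusted p of 0.0179 in limma over the 7135 genes with at least 2 tested probes, again a test chosen after the values had been seen. By this adjusted p alone, 26.6% of those genes were called, by the fold and the adjusted p 9.98%, and the median size of the change over all of them was 0.198. The Col4a5 difference stayed short of 2-fold, and without Venus replicate 1 its adjusted p was 0.106. For Col4a4 the brighter less the dimmer probe read 0.99 and 1.05 with Venus and 1.29 and 1.32 with OASIS, a change of 0.29 (SE 0.09, interval 0.04 to 0.53) with an adjusted p of 0.113.

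**Figure D3:**
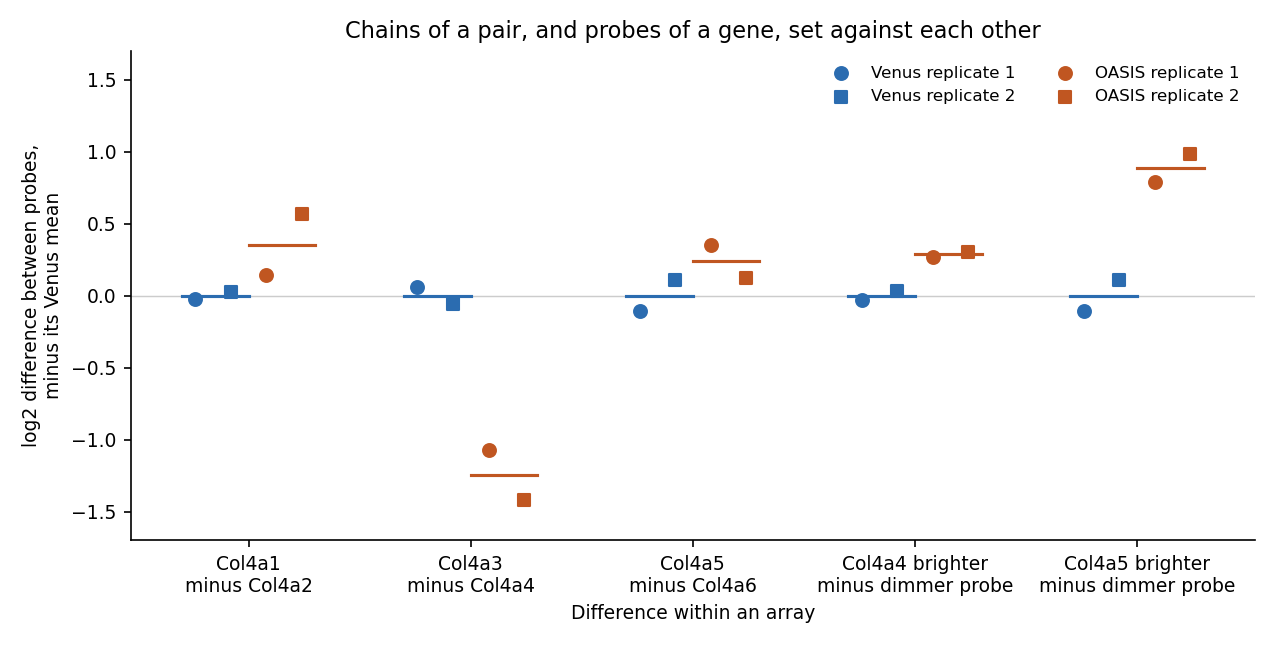
Each point is the log2 difference between 2 probes on 1 array, less the Venus mean of that difference, for the 3 chain pairs and for the probe pairs of Col4a4 and Col4a5. Short lines mark group means. The OASIS points of Col4a3 minus Col4a4 lie at -1.08 and -1.42, and those of the Col4a5 probes at 0.79 and 0.98.

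Several genes that modify, export and cross-link type IV collagen rose with OASIS, while the chains themselves did not pass the threshold. Of 25 genes for its modification, folding, export and cross-linking, 23 were tested by their brightest probe, 8 rose and 0 fell, beside 8.07% of all 16313 genes that passed and 6.22% that rose. The median over the 23 was 0.74, and over all genes tested it was -0.06. This list, like those below, was chosen with earlier results of these data known, so its counts and median are a description. By the adjusted p alone, 16 of the 23 were higher and 0 lower, beside 18.7% of all genes higher and 18.2% lower. The 8 were Sec24d, Sec23a, P4ha2, Loxl2, Colgalt1, Plod1, Sec31a and P4ha1. The last 4 rose by between 2.004-fold and 2.083-fold, at the edge of the threshold. P4ha1 and Sec31a fell short of 2-fold after quantile normalization, after median scaling and with the authors' scaled values, and P4ha1 and Plod1 after normexp correction, each leaving a count of 6. Averaged over the tested probes of a gene, Sec31a had a larger log2 fold change of 1.73. Sec23a at 1.58 and Loxl2 at 1.27 had smaller ones. P4ha1 and Colgalt1 fell short, and the count was 7, with a gene outside the 8 among them. The count was 5 without Venus replicate 1, 4 without OASIS replicate 1 and 4 in the methods' t-test.

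The largest of these rises was that of Sec24d, a cargo-binding subunit of the COPII coat that buds vesicles from the endoplasmic reticulum. It read -0.05 and -0.03 with Venus and 2.82 and 2.53 with OASIS, a rise of 2.72 (SE 0.14, adjusted p 0.00275). Sec23a, its partner in the inner coat, read -0.63 and -0.62 against 1.55 and 1.34, a rise of 2.07 (SE 0.12, adjusted p 0.00333). For both coat genes the groups lay far apart and the arrays within a group close together.

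P4ha2, a catalytic subunit of the prolyl 4-hydroxylase that stabilizes the collagen triple helix, read 1.32 and 1.37 against 3.14 and 2.97, a rise of 1.71 (SE 0.11, adjusted p 0.00403). Loxl2, a lysyl oxidase-like enzyme that cross-links type IV collagen, read 0.44 and 0.77 against 2.58 and 2.02, a rise of 3.24-fold (SE 0.23 on the log2 scale, adjusted p 0.0141). These enzymes and coat proteins also serve other collagens and cargoes. Peroxidasin (Pxdn), which makes a cross-link particular to type IV collagen, had a difference of 0.21 with an adjusted p of 0.284. Serpinh1, the collagen chaperone of the endoplasmic reticulum, had a difference of 0.74 with an adjusted p of 0.0128, short of the fold.

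Among 19 partners of type IV collagen in the basement membrane, such as laminin chains, nidogens and perlecan, 15 were tested, 0 rose and 1 had a fitted fall past the threshold, beside 1.85% of all genes. Their median was -0.33, and by the adjusted p alone 4 of the 15 were lower and 0 higher, beside 18.2% and 18.7% of all genes. Ntn4, another gene of this list, was well above background on all 4 arrays. Its difference was -0.99 (SE 0.11, adjusted p 0.00866 in limma), just short of the fold in the main fit. After median scaling and with the authors' scaled values it passed, so that 2 partners then had a fitted fall past the threshold. The 1 past the threshold in the main fit was Lama2, a laminin chain best known from muscle. It read -4.87 and -5.82 with Venus and -6.75 and -6.62 with OASIS, where neither array had it well above background. Its fall in group means was at least 1.73-fold, a bound set against the dimmest signal still well above background on each array. The bound leaves out the spread between the Venus arrays. That bound is short of 2-fold, and the fitted change and its adjusted p of 0.0497 rest on OASIS values near background, the probe having been tested only through its Venus arrays. After normexp correction its difference was -0.20. Lama2 also missed the threshold without Venus replicate 1, where its difference was -0.86, and without OASIS replicate 1 or OASIS replicate 2, where its adjusted p was 0.151 and 0.124. Without OASIS replicate 2, 1 partner rose.

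Of 14 receptors that bind type IV collagen or its network, such as integrins and discoidin receptors, 13 were tested and 0 passed, with a median of 0.03. By the adjusted p alone 0 were higher and 2 of the 13 lower, beside 18.7% and 18.2% of all genes, and 1 rose without Venus replicate 2 and with an intensity trend in limma. Of 15 proteases that cut basement membrane and their inhibitors, 10 were tested and 0 passed, with a median of 0.01, while by the adjusted p alone 2 of the 10 were higher and 3 lower, beside the same shares of all genes. In this list 1 fell without Venus replicate 2, 1 rose without OASIS replicate 1 and 1 fell without OASIS replicate 2.

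**Figure D4:**
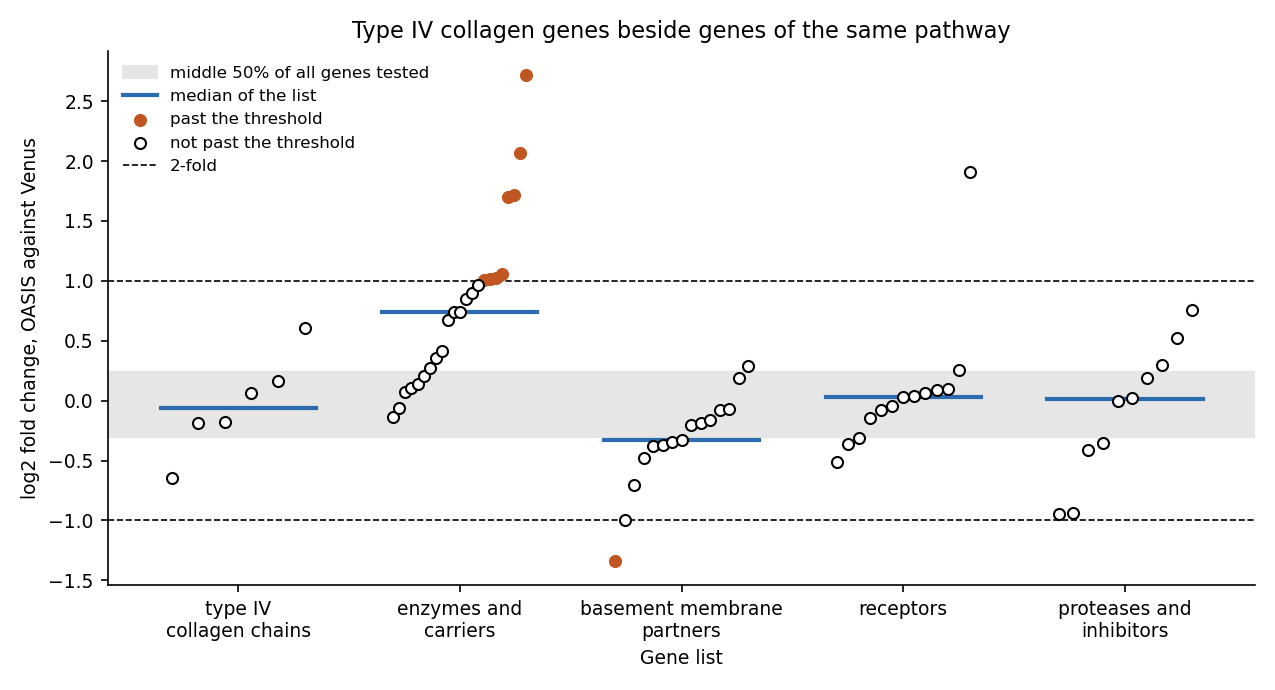
Each point is the log2 fold change of 1 gene by its brightest probe, OASIS against Venus, in the type IV collagen genes and 4 lists of related genes. Blue lines mark list medians, the grey band holds the middle 50% of all genes tested, and dashed lines mark 2-fold. The filled points, past the threshold, are 8 of the enzymes and carriers and 1 partner, and the medians of the first 3 lists are -0.06, 0.74 and -0.33.

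Markers of podocytes and of other kidney cell types were read on the same arrays, and their part in the collagen values was not tested. Among podocyte markers, 12 of 16 were tested, 2 rose and 1 fell, with a median of -0.11, beside 6.22% of all genes that rose and 1.85% that fell. Wt1, a transcription factor of the podocyte lineage, was higher by 4.62 (adjusted p 0.00216) and Cd2ap, an adaptor of the slit diaphragm, by 1.09 (adjusted p 0.00833), while the phospholipase gene Plce1 fell by 1.26 (adjusted p 0.0932). The summed level of the podocyte list was 6.61 and 6.66 with Venus and 6.47 and 6.59 with OASIS, lower by little and without overlap. Each such sum adds linear intensities over all probes of a list, so its brightest probes dominate it and it does not describe every marker.

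Endothelial markers were well above background on all 4 arrays for 1 of 5 genes, and Cdh5, Kdr, Emcn and Tek on none. Their summed level was -4.31 and -4.57 with Venus and -4.22 and -4.26 with OASIS, with 0 of the 1 tested past the threshold. Mesangial markers were well above background for 3 of 5 genes, 0 of 4 tested passed, and their summed level was 6.65 and 6.66 with Venus and 6.37 and 6.39 with OASIS, lower in both OASIS arrays. Acta2, which dominates that sum, read 6.12 and 6.13 with Venus and 5.85 and 5.87 with OASIS. Tubular markers were well above background for 3 of 5, with Umod on none, 1 of 3 tested rose, beside 6.22% of all genes, and the sums were 4.51 and 4.95 against 4.65 and 5.38. The gene that rose was Lrp2, an endocytic receptor, by 1.62. Macrophage markers were well above background for 4 of 5, with Emr1 on none, 0 of 4 tested passed, and the sums were 2.08 and 2.13 against 2.17 and 2.44.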

How the data were processed

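Cy3-labelled total RNA of 4 samples was hybridised to SurePrint G3 mouse arrays. The authors deposited, per spot, background-corrected intensity from Agilent Feature Extraction 12.1.0.3, the raw intensities of spot and local background, and quality marks. Another deposited file held scaled intensity, which is the corrected intensity times a factor per array (0.663 to 0.698), and a detection score. The arrays gave intensities only, and their number limits the precision. Symbols and bands came from the deposited annotation. No genome and no probe sequences were used here, so coordinates are not given. Gene order came from RefSeq, in which 6 of 6 symbols matched.

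Control and outlier spots were left out, each array's 75th percentile was subtracted from its log2 intensities, and spots of a probe were averaged. Probes measured on all 4 arrays and well above background (at least 0.5 of spots) on both arrays of a group were tested, 31590 of 56605. limma 3.58.1 (lmFit, eBayes) in R 4.3.3 (data.table version 1.17.8) compared OASIS with Venus, and p-values were adjusted by Benjamini-Hochberg over every tested probe. Genes were represented by their brightest probe. A bound for a dim group used, per array, the higher of the probe's value and the lowest value well above background. Values of 1 listed marker are not reported here. Every collagen probe was reported, and from each list the genes past the threshold, at most the 4 largest rises and 4 largest falls. Pxdn, Serpinh1, Ntn4 and the further genes of the list of 8 were named after their values were seen. The collagen genes and the lists were chosen with earlier results of these data known. limma on differences within arrays was added after the values were seen. The alternatives were quantile normalization, median scaling, normexp (offset 50) on median intensities, the authors' scaled values, other filters, outlier spots kept, the methods' t-test, averaging over the probes of a gene, limma with an intensity trend, other thresholds, a replicate block and leaving out each array. Tested on simulated arrays for this comparison, 200 of 31590 probes were changed, each 4-fold up or down. The fit recovered 162 of them and called 8 others, and it called 0 with none changed. Smaller changes were not simulated, so how often the fit finds differences as small as those of the collagen probes was not tested.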

Additional observations from a re-analysis of the deposited data

How the results depend on the processing

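With 2 arrays a group the precision is low, and leaving out an array leaves 1, whose spread is then taken from the other group. The count of collagen probes that rose was 0 under each alternative run, and the count that fell was 0 except for 2 by the adjusted p without the fold and a range of 0 to 1 over the fits without 1 array, the 1 being Col4a5 probe A_51_P216005 without OASIS replicate 2. Over the 4 pathway lists together, 8 genes rose, against 4 in the methods' t-test and 18 without the fold, with 5 to 12 over the fits without 1 array (5 without Venus replicate 1 or OASIS replicate 1, 12 without OASIS replicate 2). In the same lists 1 gene had a fitted fall past the threshold, against 2 after median scaling and with the authors' scaled values, 0 after normexp, with no filter, with a filter on all 4 arrays and in the methods' t-test, 9 without the fold, and 0 to 2 over the fits without 1 array (0 without OASIS replicate 1, 2 without Venus replicate 2 or OASIS replicate 2). Lama2 missed the threshold after normexp, with no filter and in the methods' t-test, and the filter on all 4 arrays removes it. Ntn4 was the gene added after median scaling and with the authors' scaled values. The cause of these shifts was otherwise not tested.

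Signs turned for 3 collagen probes. Col4a6 read 0.00047 after normexp and ranged from -0.57 to 0.22 over the fits without 1 array, above 0 without OASIS replicate 1. Col4a5 probe A_55_P1969367 ranged from -0.22 to 0.34 over these fits, below 0 without OASIS replicate 2 and, at -0.13, without Venus replicate 1. Col4a1 ranged from -0.072 to 0.40, below 0 without OASIS replicate 2. Col4a5 minus Col4a6 was -0.21 with the mean of the tested probes. Col4a5 probe A_51_P216005 stayed between -1.01 and -0.64, Col4a3 probe A_55_P2635625 between -0.80 and -0.33, and Col4a4 probe A_52_P424594 between 0.27 and 0.94. Signal close to background limits Col4a3, Col4a4 and Col4a6.

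The samples share only a replicate number. The deviations of same-numbered samples correlated with r = 0.259 across 31590 probes, and with the number as a block 0 collagen probes rose and 0 fell, as without it. In the blocked fit the adjusted p was 0.0335 for Col4a4 probe A_52_P424594, 0.0220 for Col4a3 probe A_55_P2635625 and 0.0184 for Col4a5 probe A_51_P216005, all short of 2-fold, and the lists gave counts of 8 and 1. A term for slide was not run, there being 1 slide.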
